A study of Mus musculus with 12 samples.

Results

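The mature arms of the miR-99, miR-100 and miR-125 families were followed in mouse retina and sclera. Members were all arms on the array named after miR-99a, miR-99b, miR-100, miR-125a or miR-125b, which gave 9 of the 696 mouse miRNA names, 5 of them 5p arms and 4 of them 3p arms. The 5p arms were mmu-miR-99a-5p, mmu-miR-99b-5p, mmu-miR-100-5p, mmu-miR-125a-5p and mmu-miR-125b-5p, written below without the species prefix. C57BL/6J mice had a frosted diffuser placed over the right eye at P24 for 10 days, and both eyes were taken at P34. The untreated left eye of the same animals was the control, so every control eye had a deprived fellow eye. The 4 groups were control retina, myopic retina, control sclera and myopic sclera, each with 3 arrays. By the study's methods each array received RNA of a pool of 3 eyes, whereas the labels name a single mouse for each array, and the pools of the methods were taken as the samples here. Pools 1, 2 and 3 were each run on a slide of their own, with the groups in unchanged positions, so position on a slide and group cannot be told apart.

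MicroRNAs guide Argonaute proteins to messenger RNAs mainly through the seed near their 5′ end and lower the output of those messages. The genes of miR-99, miR-100 and miR-125 lie beside let-7 genes in conserved loci, from which joint primary transcripts can be made. MiR-125 is the vertebrate relative of lin-4, the developmental timing miRNA of worms, and together with let-7 and miR-9 it is known for the timing of retinal progenitors, while miR-99 and miR-100 are known to act on the mTOR pathway.

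The mature sequences are printed because the results turn on relatives with a shared seed that differed between tissues. They were taken from RefSeq on the build GRCm38.p6, where 9 of the 9 members and 528 of the 696 names were matched. Capitals mark the seed, bases 2 to 8 from the 5′ end. The 5p arms of miR-99a, miR-99b and miR-100 shared a seed, as did the miR-125 5p arms.
miR-99a-5p: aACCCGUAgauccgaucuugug
miR-100-5p: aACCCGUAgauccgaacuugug
miR-99b-5p: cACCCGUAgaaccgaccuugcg
miR-125b-5p: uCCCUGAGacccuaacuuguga
miR-125a-5p: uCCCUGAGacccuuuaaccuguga
The 4 3p arms come from the other side of the hairpins, and each had a seed of its own.
miR-99b-3p: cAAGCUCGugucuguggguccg
miR-125a-3p: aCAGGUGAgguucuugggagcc
miR-125b-1-3p: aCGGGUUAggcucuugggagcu
miR-125b-2-3p: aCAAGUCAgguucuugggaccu
Counted from the 5′ end, miR-99a-5p and miR-100-5p differed by U16A alone. From miR-99a-5p to miR-99b-5p the substitutions were A1C, U11A, U16C and U21C. MiR-125b-5p and miR-125a-5p shared their 13 leading bases and, compared position by position without gaps, differed at 7 of 22 bases. MiR-125a-5p is the longer of them, at 24 bases, so positions shifted by its extra bases count as differences. Of the other miRNAs on the array with a matched sequence, miR-351-5p was the 1 that carried the seed of the miR-125 5p arms, and it was detected on no retina array and on 3 of the sclera arrays.

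The array annotation, on the build mm9, placed the 5p arms in 3 loci, each with an arm of miR-99 or miR-100, a let-7 arm and a miR-125 arm in that order. On chromosome 9 the order was miR-100-5p (chr9:41339523-41339541), let-7a-5p and miR-125b-5p (chr9:41390028-41390044), a span of 50522 bases. On chromosome 16 it was miR-99a-5p (chr16:77599188-77599206), let-7c-5p and miR-125b-5p (chr16:77646529-77646545), a span of 47358 bases. On chromosome 17 miR-99b-5p (chr17:17967164-17967179), let-7e-5p and miR-125a-5p (chr17:17967787-17967804) lay within 641 bases. MiR-125b-5p is made from both long loci and cannot be assigned to either, and let-7a-5p and let-7c-5p each had a further annotated copy on another chromosome.

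The level used throughout is the log2 of the total gene signal, the background-subtracted fluorescence summed over the detected probes of a miRNA, after quantile normalization over the 12 arrays. A signal under 0.5 was set to 0.5, so an undetected miRNA stood at -1. Between 353 and 401 miRNAs were detected on the retina arrays and between 274 and 317 on the sclera arrays. Of the members, 6 were detected on all 12 arrays, miR-99b-3p was detected on 7, and miR-125b-1-3p and miR-125b-2-3p were detected on none. The latter pair were not tested, and their brightest probes reached signals of 0.30 and 2.79. The remaining 7 members were tested with limma among the 443 miRNAs detected on at least 1 array, and a call needed an adjusted p under 0.05 and a difference of at least 2-fold. Pool 3 of the control sclera stood apart from the other sclera arrays. It had the fewest detected miRNAs (274) and the lowest 75th percentile of signal (276, against 436 to 803 on the other 5 sclera arrays). Its total gene signals of the 6 members detected on all arrays were the lowest of the control sclera, while after scaling it was the highest of the control sclera for each of them or level with pool 1 (miR-125b-5p, quantile-normalized). In bulk samples such as these, fewer cells of a type and less RNA per cell cannot be told apart.

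**Figure D1:**
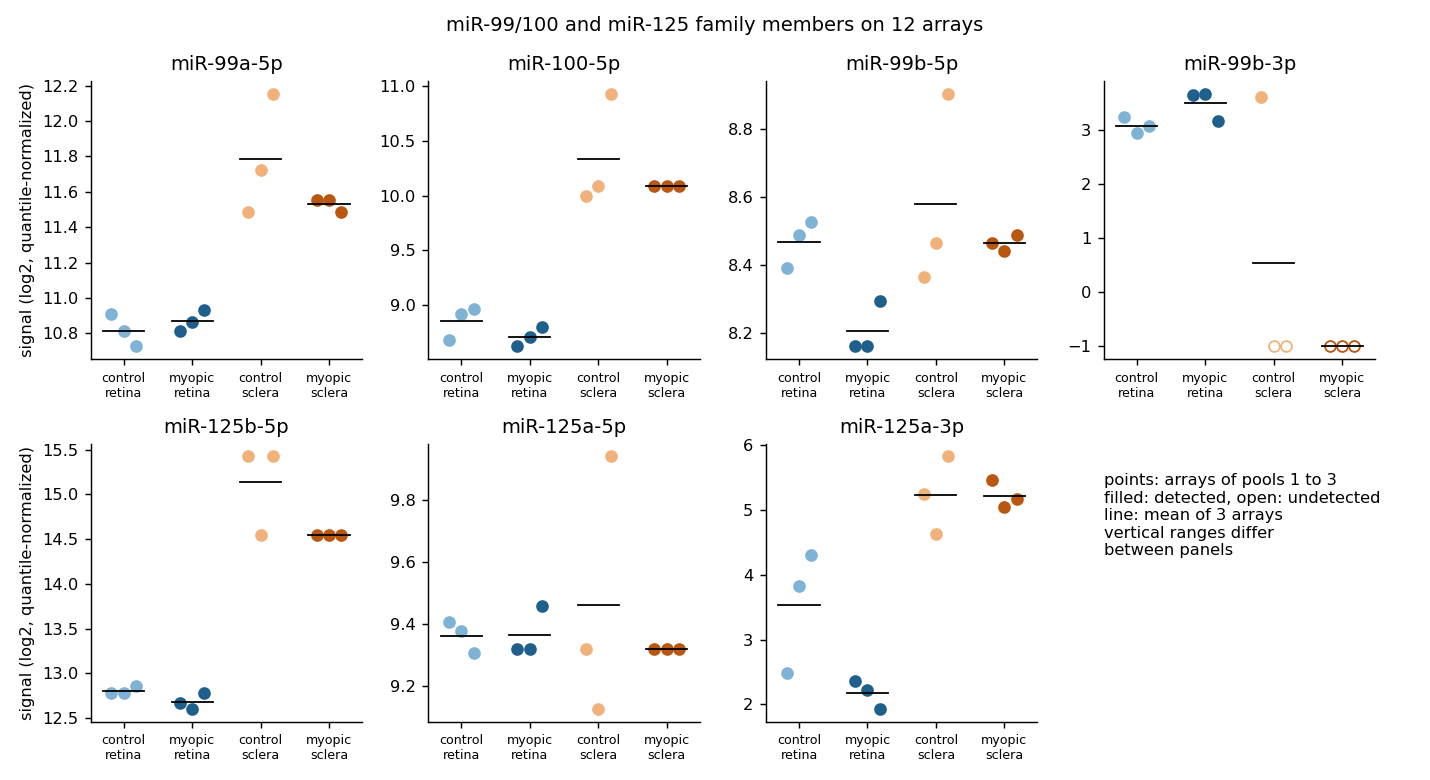
Level of the 7 members detected on any array (log2, quantile-normalized) in the 4 groups. Points are arrays in the order of pools 1 to 3, open points are undetected, lines are means of 3 arrays, and vertical ranges differ between panels. MiR-100-5p, miR-99a-5p and miR-125b-5p were lower on every retina array than on any sclera array, an order that holds for this scaling and for scaling to the 75th percentile and not without normalization, and miR-99b-3p was detected on 6 retina arrays and 1 sclera array.

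The comparison of control retina with control sclera asks how the families are distributed between the tissues. MiR-125b-5p, miR-100-5p and miR-125a-3p were lower in the retina, miR-99a-5p was lower by slightly less than 2-fold, and miR-99b-5p and miR-125a-5p differed by no more than the spread between arrays. Of the 7 members tested 3 were called, all of them lower in the retina. Among all 443 miRNAs 50.6% were called, 27.5% higher and 23% lower in the retina, so the members' count was near the share of all miRNAs. With scaling to the 75th percentile 4 members were called, 1 higher and 3 lower. The median difference of the 7 members was -0.97 and that of all 443 was 0.30. The number of arrays limits the precision of each value.

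On the control retina arrays of pools 1, 2 and 3, miR-125b-5p stood at 12.78, 12.78 and 12.86. On the control sclera arrays it was 15.43, 14.55 and 15.43. The groups did not overlap, and the retina arrays lay close together. Mean levels were 12.80 ± 0.05 and 15.13 ± 0.50 (SD, n = 3), and the log2 difference was -2.33 (SE 0.21, limma adjusted p = 8.6e-06). In the sclera miR-125b-5p and let-7c-5p held the highest pair of values that quantile normalization gives to every array, so this size depends on the gap between those values, and it was -1.27 after scaling each array to its 75th percentile.

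MiR-100-5p stood at 8.68, 8.92 and 8.96 in the control retina. In the control sclera it stood at 10.00, 10.08 and 10.93. Every sclera array was above every retina array, and pool 3 was the highest in the sclera. Mean levels were 8.85 ± 0.15 and 10.34 ± 0.52 (SD, n = 3), and the log2 difference was -1.49 (SE 0.23, limma adjusted p = 0.00027). MiR-99a-5p, which differs from it by U16A, went the same way with a smaller difference. Its levels were 10.91, 10.81 and 10.73 in the control retina and 11.48, 11.72 and 12.15 in the control sclera. The log2 difference was -0.97 (SE 0.16, limma adjusted p = 0.00052). It passed the test and not the 2-fold threshold, which it reached when pool 1 of the control retina (-1.01), pool 1 of the control sclera (-1.12) or pool 2 of the control sclera (-1.01) was left out. The threshold was also reached with scaling to the 75th percentile over all names (-1.34, limma adjusted p = 0.00062).

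The 5p arms of the chromosome 17 locus did not share this difference. MiR-99b-5p, which has the same seed as miR-100-5p, was at 8.39, 8.49 and 8.53 in the control retina and at 8.37, 8.46 and 8.90 in the control sclera. MiR-125a-5p, which has the same seed as miR-125b-5p, was at 9.41, 9.38 and 9.30 in the control retina and at 9.32, 9.13 and 9.94 in the control sclera. The tissues overlapped for both, with pool 3 again the highest in the sclera. The log2 differences were -0.11 (SE 0.15, limma adjusted p = 0.53) for miR-99b-5p and -0.10 (SE 0.19, limma adjusted p = 0.67) for miR-125a-5p. Scaled to the 75th percentile they were 0.00 and 0.13, and with that percentile taken over all names they were -0.54 and -0.41. The direction of miR-125a-5p was therefore not fixed by these data.

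The 3p arms of this locus went apart. MiR-125a-3p was dim, at 2.49, 3.83 and 4.30 in the control retina and 5.25, 4.63 and 5.83 in the control sclera. The groups did not overlap, and the log2 difference was -1.70 (SE 0.45, limma adjusted p = 0.0089). Fitted without the myopic arrays, the difference was the same (-1.70) and the call was lost (limma adjusted p = 0.077). With normexp background correction it was -0.12 and passed the limma test (adjusted p = 0.010) but not the 2-fold threshold. That correction added an offset of 50, above the total gene signals of miR-125a-3p (6.9 to 20.1). Such an offset shrinks the log2 differences of dim miRNAs by construction. MiR-99b-3p was detected on all 3 control retina arrays, at 3.23, 2.94 and 3.07, and in the control sclera on pool 1 alone, at 3.61. With this normalization pool 1 of the sclera was above every retina array, whereas its total gene signal of 3.3 was below the 7.5 to 19.0 of the control retina, and its level scaled to the 75th percentile (1.91) was below theirs (2.35 to 3.78). The log2 difference of 2.55 (SE 1.02, limma adjusted p = 0.055) did not pass the test, and without that array it passed, with miR-99b-3p then undetected on both control sclera arrays and the size of the difference set by the floor. MiR-99b-3p was also called with scaling to the 75th percentile.

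These directions depend on how the arrays were scaled, since the sclera arrays were dimmer as a whole. For the 246 miRNAs that every array detected, the median difference between control retina and control sclera was -0.24 after quantile normalization of the 12 arrays together and 0.13 after scaling to the 75th percentile. It was 1.17 on signals left as scanned and 1.43 when each tissue was quantile-normalized by itself. Under the latter 2 settings 3 members were called as well, but they were miR-99b-5p, miR-125a-5p and miR-99b-3p, all higher in the retina, while miR-100-5p stood at -0.40 and -0.43, miR-125b-5p at -0.23 and -0.03 and miR-125a-3p at -0.23 and 0.53, the last with its direction turned. With scaling to the 75th percentile 160 of the 443 miRNAs were called higher and 82 lower in the retina, against 122 and 102 with quantile normalization.

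Measured against the median of those 246 miRNAs, miR-99b-5p and miR-125a-5p lay close to it and the other 5 members farther away. Of the 5 scalings tried, the 3 that apply at most a factor to each array (the 75th percentile over either set of names, and no normalization) give the same value here by construction for a miRNA detected on all arrays, so the ranges below compare 3 distinct scalings for all members but miR-99b-3p. Relative to it miR-100-5p stood between -1.86 and -1.25 and miR-125b-5p between -2.09 and -1.40. MiR-99a-5p stood between -1.23 and -0.73 and miR-125a-3p between -1.46 and -0.89. MiR-99b-5p stood between -0.19 and 0.13 and miR-125a-5p between -0.32 and 0.14, on both sides of the median. MiR-99b-3p, whose undetected arrays stand at the floor, was above it in each of the 5. In these 3 the miR-99a-5p, miR-100-5p and miR-125b-5p values were below the median, and those of the 5p members of the short locus were near it.

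Between myopic retina and myopic sclera, which shows whether the tissue pattern held in deprived eyes, 4 of the 7 members were called, 1 higher and 3 lower in the retina. Among all 443 miRNAs 58.9% were called, 32.5% higher and 26.4% lower. Scaling to the 75th percentile called 196 higher and 82 lower, in place of 144 and 117. The members' median was -0.66, against 0.36 for all 443 and -0.32 for the 246 miRNAs detected on all arrays.

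MiR-125b-5p was at 12.67, 12.60 and 12.78 in the myopic retina and at 14.55 on each myopic sclera array, a log2 difference of -1.87 (SE 0.21, limma adjusted p = 3.6e-05). After scaling to the 75th percentile the difference was -1.06. MiR-100-5p was at 8.62, 8.70 and 8.80 in the myopic retina and at 10.08 on each myopic sclera array, a log2 difference of -1.38 (SE 0.23, limma adjusted p = 0.00043). Identical values arise where a miRNA holds the same rank on several arrays. MiR-125a-3p, at 2.35, 2.23 and 1.93 in the myopic retina and 5.46, 5.04 and 5.17 in the myopic sclera, had the widest gap of the members detected on all arrays (-3.06, SE 0.45, limma adjusted p = 0.00021), and scaling to the 75th percentile made it -1.37. MiR-99b-3p was detected on every myopic retina array, at 3.65, 3.67 and 3.18, and on no myopic sclera array, which made it at least 4.14-fold higher in the retina (limma adjusted p = 0.0031).

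MiR-99a-5p was again lower in the retina by less than 2-fold (-0.66, limma adjusted p = 0.0047), but it was at 0.59 without normalization and at 0.51 when each tissue was normalized by itself. With the 75th percentile over all names it was at -1.58 (limma adjusted p = 0.00018), past the 2-fold threshold. MiR-99b-5p differed by -0.26 (limma adjusted p = 0.14) and miR-125a-5p by 0.05 (limma adjusted p = 0.84). Scaling to the 75th percentile turned miR-99b-5p to 0.16. With the 75th percentile over all names miR-99b-5p was at -0.81 and passed the limma test (adjusted p = 0.010) but not the 2-fold threshold. MiR-125a-5p was then at -0.63 (limma adjusted p = 0.0504). With quantile normalization and with scaling to the 75th percentile, both comparisons of tissues called miR-100-5p, miR-125b-5p and miR-125a-3p lower in the retina, on separate arrays of the same animals. Without normalization the members called in the myopic eyes were miR-99b-5p (1.35), miR-125a-5p (1.53) and miR-99b-3p, undetected in the myopic sclera, all higher in the retina, and miR-125b-5p was at 0.13.

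The let-7 arms that share the loci were followed by name. On the array these were let-7a-5p, let-7c-5p, let-7e-5p and let-7c-1-3p, of which let-7c-1-3p was detected on 2 sclera arrays and on no retina array. In the control eyes 1 of the 4 was called, let-7c-5p, which was lower in the retina (-1.78, limma adjusted p = 5.4e-05) and was not called after scaling to the 75th percentile (-0.85). Let-7a-5p differed by -0.23 (limma adjusted p = 0.066) and let-7e-5p by 0.33 (limma adjusted p = 0.039), less than 2-fold. In the myopic eyes 1 of the 4 was called, let-7c-5p (-2.34), and it too was not called after scaling to the 75th percentile (-0.78) and stood at 0.41 without normalization. With both scalings all 3 5p arms of the chromosome 16 locus were lower in the control retina, although without normalization let-7c-5p was at 0.19 and miR-99a-5p at 0.23. The 3 5p arms of the chromosome 17 locus were within 2-fold with both scalings, unlike its 3p arms, and on chromosome 9 let-7a-5p lay apart from its neighbours.

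**Figure D2:**
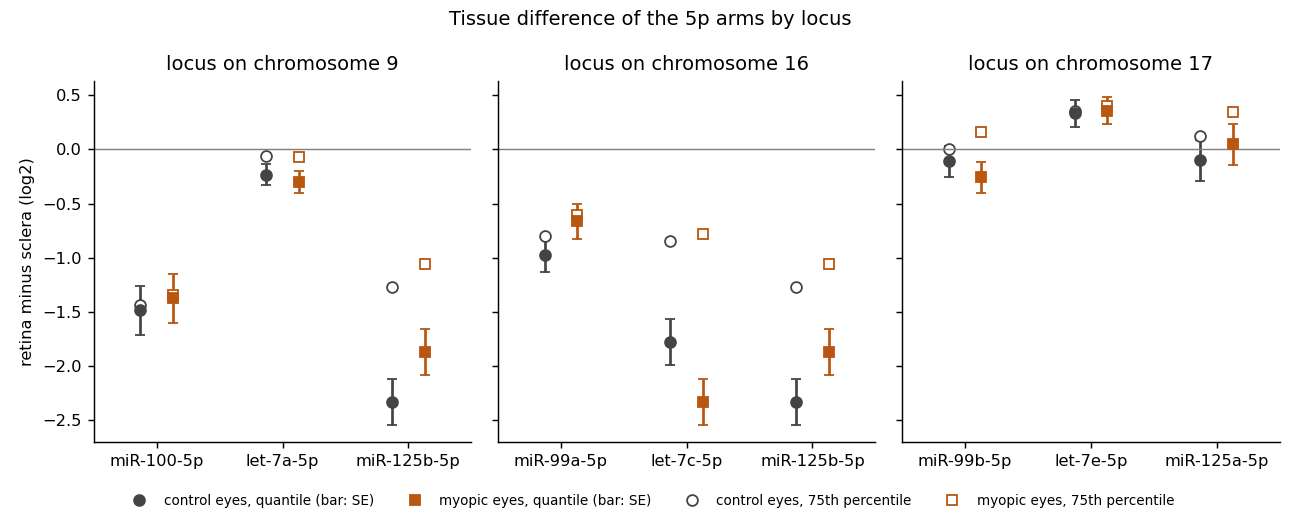
Retina minus sclera (log2) for the 5p arms of the 3 loci, in the order in which they lie. Filled symbols are quantile-normalized values with SE and open symbols are values scaled to the 75th percentile, for control and myopic eyes, and miR-125b-5p is shown at both of its loci. The miR-99b-5p and miR-125a-5p values lie near 0, where the control values of both and the myopic value of miR-99b-5p lie on different sides of 0 with the 2 scalings and the myopic value of miR-125a-5p is above 0 with both (0.05 and 0.34), while those of miR-100-5p, miR-99a-5p and miR-125b-5p lie below 0 with both scalings shown, although without normalization miR-99a-5p was at 0.23 in control eyes and 0.59 in myopic eyes and miR-125b-5p at 0.13 in myopic eyes.

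A difference between relatives on the same array cancels any scaling factor of that array. For each eye pool the difference of a pair was taken in the retina and in the sclera of the same pool, and an exact two-sided sign-flip test was run over the 6 eye pools for 5 pairs. MiR-99b-5p less miR-100-5p was higher in the retina by 1.25 ± 0.19 (SD, n = 6), in 6 of 6 pools. MiR-125a-5p less miR-125b-5p was higher in the retina by 2.07 ± 0.33 (SD, n = 6), in 6 of 6 pools. Both members of the short locus were therefore higher in the retina relative to a partner with the same seed.

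MiR-99a-5p lay between its relatives, at -0.63 ± 0.29 (SD, n = 6) against miR-99b-5p and at 0.61 ± 0.19 (SD, n = 6) against miR-100-5p, with 6 of 6 pools on the same side each time. The arms of the miR-125a hairpin also separated, with miR-125a-5p less miR-125a-3p higher in the retina by 2.35 ± 1.09 (SD, n = 6) in 6 of 6 pools. Each of the 5 exact tests gave p = 0.03125, the smallest that 64 sign patterns allow, and the Benjamini-Hochberg value over the 5 pairs was 0.03125. The 6 eye pools came from 3 sets of animals, and over 3 sets the smallest exact p would be 0.25. On the signals scaled to the 75th percentile, where the factor cancels exactly, the differences were 1.47 for miR-99b-5p less miR-100-5p, 1.40 for miR-125a-5p less miR-125b-5p and 1.56 for the arms of miR-125a. The last pair did not pass with normexp background correction (0.16) or with each tissue normalized by itself (1.37). The normexp value cannot decide here, because its offset of 50 flattens the dim miR-125a-3p by construction.

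**Figure D3:**
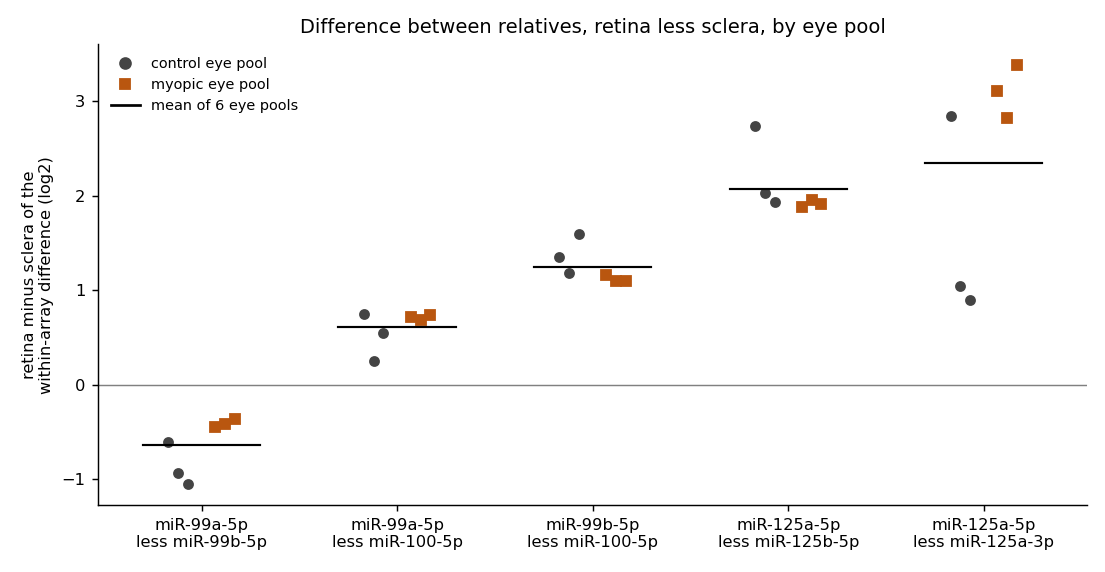
Difference between 2 relatives on the same array, retina less sclera (log2, quantile-normalized), for each of 6 eye pools, with the mean as a line. Every pool lies on the same side of 0 for each of the 5 pairs, below it for miR-99a-5p less miR-99b-5p and above it for the other 4.

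Each 5p member was measured by 2 probes of 10 spots, and the 2 probes gave nearly the same tissue difference. For miR-100-5p they gave -1.50 and -1.42 in the control eyes on the 75th percentile scale, and for miR-125b-5p they gave -1.27 and -1.25. For miR-99a-5p they gave -0.87 and -0.78. The 2 probes of each of these members fell within 0.1 of each other. The probes of miR-99a-5p and miR-100-5p had a single mismatch to the other family member, so part of the signal of each may come from the other, and how much was not tested. The dim 3p arms had 4 probes each and spread more widely, from -1.75 to -0.77 for miR-125a-3p and from -0.04 to 1.73 for miR-99b-3p.

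**Figure D4:**
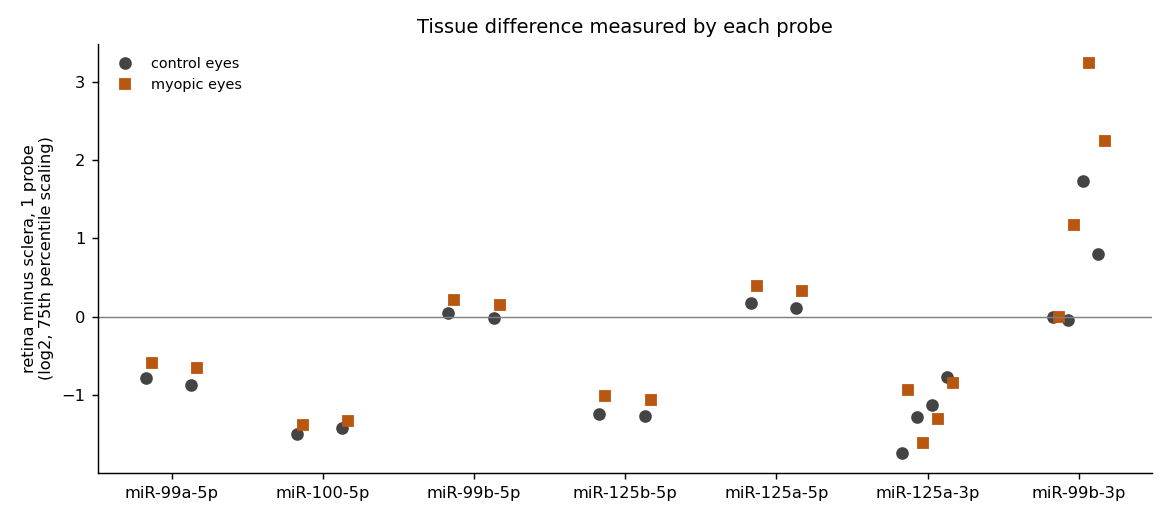
Retina minus sclera (log2, scaled to the 75th percentile) for each probe of the 7 members, in control and myopic eyes. The 2 probes of each 5p arm lie side by side, and the 4 probes of miR-125a-3p lie between -1.75 and -0.77 in the control eyes, all below 0, while those of miR-99b-3p lie between -0.04 and 1.73.

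Form deprivation was compared with the fellow eye in each tissue to ask which miRNAs respond to it. In the retina 0 of the 7 members were called by limma or by a linear model without moderation of the spread, against 0.226% of all 443 miRNAs, and 1 member, miR-125a-3p, had an unadjusted p under 0.05 in limma. Of the 443 miRNAs 130 had such a p. The share of 0.226% rests mostly on pool 1 of the control retina, without which 122 of 442 miRNAs were called. Without pool 3 of the myopic retina 13 of 443 were called, and 9 of 443 for the difference between tissues in the response. The members' median log2 difference was -0.12, as was that of all 443. The 5p arms stayed within -0.26 and 0.05, with miR-100-5p at -0.14, miR-125b-5p at -0.12, miR-99a-5p at 0.05 and miR-125a-5p at 0.00, and with scaling to the 75th percentile all 5 lay between -0.10 and -0.04, with the 75th percentile over all names between -0.45 and -0.40, and without normalization between 0.01 and 0.06. MiR-100-5p, miR-125b-5p and miR-99b-5p were lower in the myopic eye in 3 of 3 pools, as they also were after scaling to the 75th percentile. Other miRNAs within 0.5 log2 of the mean signal of each on the retina arrays were compared by mean difference. With quantile normalization 27 of 30 were lower for miR-100-5p, 38 of 43 for miR-99b-5p and 2 of 10 for miR-125b-5p. Scaled to the 75th percentile these were 21, 26 and 5. MiR-99a-5p and miR-125a-5p went both ways between pools. MiR-99b-5p, at 8.16, 8.16 and 8.30 in the myopic retina, lay below all 3 control arrays, a difference of -0.26 (SE 0.15, limma adjusted p = 0.27) that came to -0.10 after scaling to the 75th percentile. With array weights it was -0.32 and passed the limma test (adjusted p = 0.00062, over a range of 0.00062 to 1 among the alternatives) but not the 2-fold threshold. Its difference between tissues in the response was -0.35 and passed as well. That setting called 146 of the 443 miRNAs in the retina and 156 for the difference between tissues, against 1 for each with all arrays weighted alike. MiR-100-5p also passed with array weights for the difference between tissues in the response (-0.28, limma adjusted p = 0.040). Among the alternatives that keep all arrays, its lowest limma adjusted p in the retina was 0.0096. Over those alternatives its difference in the retina stayed between -0.45 and 0.01.

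MiR-125a-3p was at 2.35, 2.23 and 1.93 in the myopic retina, below all 3 control retina arrays. Pool 1 of the control retina (2.49) lay close to the myopic arrays, and pools 2 and 3 lay well above them. Within pools 1, 2 and 3 the myopic eye less the control eye was -0.14, -1.60 and -2.37. The log2 difference was -1.37 (SE 0.45, limma adjusted p = 0.134) and did not pass the test. It passed without pool 1 of the control retina (-1.87) and with array weights (-1.55), and in both settings it was also called for the difference between tissues in the response (-1.87 and -1.75). In these settings many miRNAs were called. Without pool 1 of the control retina 122 of 442 miRNAs were called in the retina and 112 for the difference between tissues, and with array weights these were 146 and 156 of 443, against 1 of 443 for each with all arrays weighted alike. The call of 1 of 7 members there is therefore no more frequent than calls among all miRNAs. MiR-125a-3p was among the miRNAs that the authors selected on these same arrays, so its difference in the retina is no independent evidence.

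The size of this difference followed the scaling. Before normalization the total gene signals of miR-125a-3p were 10.0, 13.6 and 14.5 in the control retina and 12.9, 17.2 and 6.9 in the myopic retina, and the groups overlapped. Scaled to the 75th percentile the log2 levels were 2.86, 3.26 and 3.32 in the control retina and 3.15, 3.22 and 2.37 in the myopic retina. Here too the groups overlapped, and the log2 difference was -0.23, while without normalization it was -0.13. The 21 other miRNAs of like brightness, within 0.5 log2 of its mean signal on the retina arrays, had a median difference of -0.99 with quantile normalization and 0.09 with scaling to the 75th percentile. The median of the 246 miRNAs detected on all arrays moved from -0.21 to -0.02 between these scalings, and relative to it miR-125a-3p stood between -1.16 and -0.21 over the 3 distinct scalings. The 4 probes gave differences from -0.59 to 0.83 in the retina, on both sides of 0.

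**Figure D5:**
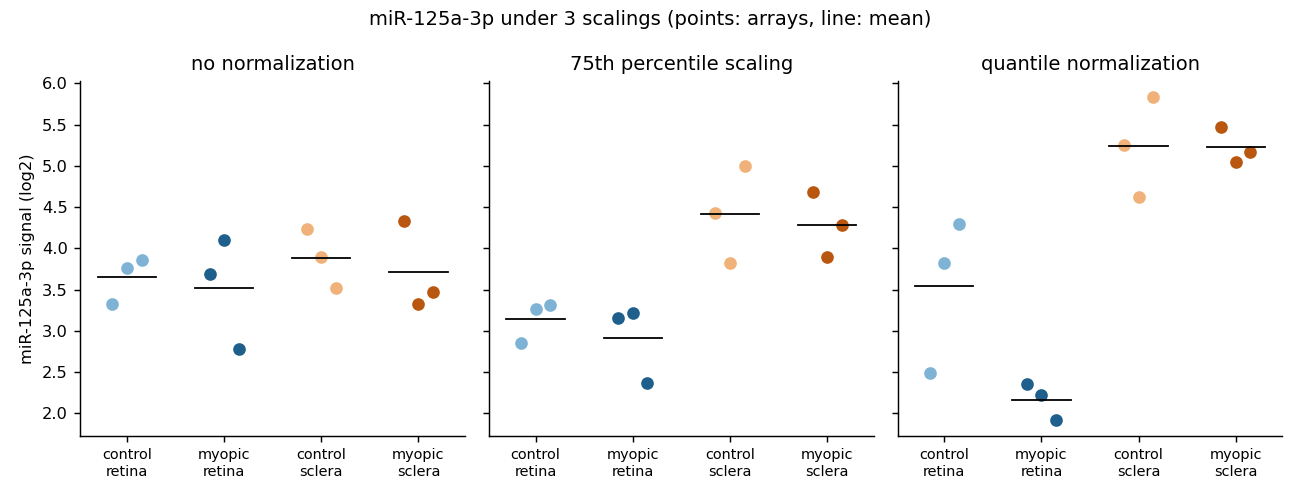
Level of miR-125a-3p (log2) on the 12 arrays without normalization, scaled to the 75th percentile and quantile-normalized. Points are arrays and lines are means of 3. The control and myopic retina overlap in the first and second panels, with differences of -0.13 and -0.23, and separate in the third, with a difference of -1.37.

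MiR-99b-3p was at 3.65, 3.67 and 3.18 in the myopic retina against 3.23, 2.94 and 3.07 in the control retina. The groups overlapped, and the log2 difference was 0.42 (SE 1.02, limma adjusted p = 0.90). Within pools 1, 2 and 3 the myopic eye less the control eye was 0.41, 0.74 and 0.10, higher in 3 of 3 pools, as it also was after scaling to the 75th percentile. Its total gene signals were 19.0, 8.4 and 7.5 in the control retina and 28.0, 41.2 and 15.9 in the myopic retina, a difference of 1.32 without normalization and of 1.21 scaled to the 75th percentile, which passed the test under neither.

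In the sclera 0 of the 7 members were called by limma or by the linear model without moderation, as were 0% of all 443 miRNAs, and 1 member, miR-125b-5p, had an unadjusted p under 0.05 in limma. Of the 443 miRNAs 13 had such a p. All 7 members were lower in the myopic sclera, with a median of -0.25 against 0 for all 443, and the 7 were also lower after scaling to the 75th percentile, although miR-125a-3p was at 0.02 when each tissue was normalized by itself. Among the alternatives that keep all arrays, miR-125a-3p reached 0.20, miR-125a-5p 0.08, miR-99b-5p 0.04 and miR-100-5p 0.03. Pool 3 of the control sclera carried most of the decrease. Without it miR-100-5p (0.04), miR-99b-5p (0.05), miR-125a-5p (0.10) and miR-125a-3p (0.28) were higher in the myopic sclera, while miR-99a-5p (-0.07), miR-125b-5p (-0.44) and miR-99b-3p, undetected in the myopic sclera, were lower.

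MiR-125b-5p, at 15.43, 14.55 and 15.43 in the control sclera and 14.55 on each myopic array, differed by -0.58 (SE 0.21, limma adjusted p = 1). Without pool 2 of the control sclera, the control array on which it was lowest, the difference was -0.90 and passed the limma test (adjusted p = 0.0063, over a range of 0.0063 to 1 among the alternatives) but not the 2-fold threshold. Let-7c-5p, at 14.55, 15.43 and 14.55 in the control sclera and 15.43 on each myopic array, differed by 0.58 (SE 0.21, limma adjusted p = 1). These were mirror images, since the 2 miRNAs exchanged the highest pair of values of the common distribution from array to array. Scaled to the 75th percentile, miR-125b-5p differed by -0.29 and let-7c-5p by -0.06. MiR-99b-3p was undetected in the myopic sclera and detected on a single control sclera array (3.61). Of the 4 let-7 arms 0 were called in either tissue by limma or by the linear model without moderation, and at an unadjusted p under 0.05 there were 0 in the retina and 1, let-7c-5p, in the sclera.

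Whether the tissues responded differently to the diffuser was tested directly. By limma and by the linear model without moderation 0 of the 7 members were called, against 0.226% of all 443 miRNAs, and 0 of the 7 had an unadjusted p under 0.05, as 36 of the 443 did. MiR-125a-3p had a difference of -1.36 (limma adjusted p = 0.38), which was 0.05 without normalization. MiR-99b-3p, undetected in the myopic sclera, did not pass (limma adjusted p = 0.45), and the 5p arms lay between -0.15 and 0.46. With the 75th percentile over all names the 5p arms lay between -0.34 and -0.22. MiR-100-5p, at 0.11, turned to -0.28 with array weights and to -0.19 without pool 3 of the control sclera. With array weights it passed the limma test (adjusted p = 0.040) but not the 2-fold threshold, in a setting that called 156 of the 443 miRNAs. For the relatives on the same array, the change with deprivation was between -0.14 and 1.37 over the 5 pairs and both tissues. With 3 arrays against 3 the smallest two-sided exact permutation p is 0.1, so none of these 10 comparisons could pass, and the value of 1.37, for the arms of miR-125a in the retina, was 0.18 after scaling to the 75th percentile.

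Lists of marker miRNAs were read for the cell types of the eye. All 6 miRNAs of retinal neurons and photoreceptors were called higher in the control retina, with miR-124-3p the most abundant (log2 difference 5.09), and all 3 of connective tissue were called higher in the control sclera, with miR-199a-3p the most abundant (-7.90). The markers thus matched the tissue labels. The sums of a list that follow are of total gene signals scaled to the 75th percentile, not of quantile-normalized levels. Summed over the 6 neuronal miRNAs, the scaled signal was 12837, 13129 and 2346 on the control sclera arrays. The myopic sclera arrays gave 9384, 5161 and 11068, and the retina arrays gave 151068 to 188165. It was lowest in pool 3 of the control sclera, where the pigment cell sum was highest (10637, against 4638 to 6852 on the other sclera arrays) and where 5 of the members, miR-99a-5p, miR-99b-5p, miR-100-5p, miR-125a-5p and miR-125a-3p, were highest among the sclera arrays after normalization. On signals as scanned pool 3 was the lowest control sclera array for all 5, as for miR-100-5p (552, against 897 and 1124) and miR-99a-5p (1448, against 2145 and 2883). The endothelial sum was lower on every myopic sclera array (2788 to 3025) than on every control sclera array (3231 to 3837), as the members' levels were lower on average. The part of these differences in the result was not tested.

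The log2 difference of the most abundant miRNA of each further list is given in parentheses. In the control sclera both smooth muscle miRNAs (miR-143-3p, -3.13), the 3 skeletal muscle miRNAs on the array (miR-133b-3p, -4.50) and both endothelial miRNAs (miR-126-3p, -1.85) were called higher, as were 2 of 4 of leukocytes (miR-223-3p, -4.84), 1 of 2 of erythroid cells (miR-451, -2.04) and 2 of 3 of surface epithelium and lens (miR-184-3p, -2.23, itself not called). Of the 2 pigment cell miRNAs 1 was called higher in the retina (miR-204-5p, 0.45, itself not called). MiR-214-3p of connective tissue and miR-142-5p of leukocytes were undetected in the control retina. Their part in the tissue differences of the members was not tested. In the retina 1 marker was called with deprivation, miR-145-5p of smooth muscle. It was detected on the 3 control retina arrays and undetected on the 3 myopic ones. The call (limma adjusted p = 0.00092) rests on a log2 difference of -3.85, a size set by the floor. As a bound miR-145-5p was at least 1.52-fold lower, short of the 2-fold threshold. It was the 1 miRNA of 443 called in the retina. Raising the floor to the lowest detected signal left 0 called, as did levels from processed spots and a fit of the retina groups alone. Normexp also left 0, but its offset flattens dim miRNAs by construction. Scaling to the 75th percentile called 1. The summed scaled signal of the surface epithelium and lens miRNAs was 76.6, 1055 and 3680 in the control retina and 458, 401 and 419 in the myopic retina. The connective tissue miRNAs summed to 32.7, 42.6 and 162 in the control retina and to 35.8, 43.1 and 40.4 in the myopic retina. The smooth muscle miRNAs summed to 46.9, 53.1 and 93.6 in the control retina and to 36.8, 40.8 and 44.5 in the myopic retina. Among the control retina arrays 7 of the 9 lists had their lowest sum in pool 1 and all 9 their highest in pool 3, the pools in which miR-125a-3p was lowest and highest. The neuronal list was among them, at 151068, 156750 and 188165. Their part in the result was not tested.

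The miRNAs whose pattern over the 12 arrays was nearest to each 5p arm were found among 240 others detected on all arrays, by the root mean square difference of mean-centred log2 levels. Nearest to miR-99b-5p were miR-423-5p (0.097), miR-378-3p (0.121) and miR-127-3p (0.142), and nearest to miR-125a-5p were miR-127-3p (0.075), miR-1906 (0.137) and miR-296-5p (0.156). MiR-127-3p was thus named for both 5p arms of the short locus. Nearest to miR-99a-5p were miR-5097 (0.174), let-7b-5p (0.176) and miR-497-5p (0.184), and nearest to miR-100-5p were miR-1939_v16.0 (0.138), miR-2145_v16.0 (0.158) and miR-1904 (0.181). MiR-125b-5p had no neighbour as near, with miR-720 (0.320), miR-494-3p (0.331) and miR-24-3p (0.333) the closest. These levels were quantile-normalized, and in the sclera miR-125b-5p moved between the highest pair of values (14.55 and 15.43). The part of this in its distances was not tested.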

How the data were processed

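The authors deposited scanner output in which each value is a fluorescence intensity, with no normalization between arrays. The authors also deposited log2 values, quantile-normalized, of which 437 entries are mouse miRNAs, 7 of them members. Against the deposited log2 values, the levels used correlated at 0.9994 and differed by a median of 0.123. The file headers name Feature Extraction 11.0.1.1, whereas the methods name another version. Total gene signals were floored at 0.5, quantile-normalized over 696 names and 12 arrays and put on a log2 scale. The 253 names detected on no array were left out, and 443 were tested with limma 3.58.1 in R 4.3.3, in a single fit of 4 groups with 8 residual degrees of freedom and Benjamini-Hochberg adjustment over the 443.

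The labels give the same mouse number to both eyes and both tissues. Residuals of paired eyes correlated, over miRNAs, at 0.38, -0.46 and 0.59 in the retina and at -0.14, -0.16 and 0.00 in the sclera for pools 1, 2 and 3, and miRNAs are not independent replicates. Pools were therefore not paired in the fit, and the block was run as an alternative. For the bounds of miR-99b-3p and miR-145-5p, signals were scaled to the 75th percentile, and each array of the undetected group took its lowest signal of any detected miRNA or the brightest probe of that miRNA, if that was higher. Array positions of miRNAs are from the annotation of the array, on mm9.

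Named were every member, the let-7 arms of the loci, the seed relative, the 3 nearest miRNAs of each 5p arm, the most abundant miRNA of each marker list, and any marker called with deprivation. The undetected markers were named after their values were seen. Members and lists were chosen with earlier results of these data known. Besides the settings reported, 27 alternatives were run, among them 12 that leave out an array.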

Additional observations from a re-analysis of the deposited data

How the results depend on the processing

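Besides quantile normalization, 9 other ways of making the levels, changes of filter, test and groups fitted, pool as a replicate block and leaving out each array were run. For control tissues, where 3 members were called, the number was 2 to 5 over the settings that keep all arrays (5 with the 75th percentile over all names) and 3 to 5 with an array left out. For myopic tissues, where 4 were called, it was 1 to 5 (1 with normexp background correction) and 4 with any array left out. Normexp called 73 of all 443 miRNAs in myopic tissues, in place of 261. For the retina and for the difference in response the number of members called was 1 with array weights, and 0 to 1 with an array left out, in each case miR-125a-3p, in settings that called 112 to 156 of all miRNAs. The let-7 arms called in control tissues were 0 with the 75th percentile, 2 with each tissue quantile-normalized by itself (within each tissue, in what follows) and 2 from processed spots. Within each tissue these were let-7a-5p (1.01) and let-7e-5p (1.49), higher in the retina, in place of let-7c-5p, as was let-7e-5p alone without normalization (1.39). In myopic tissues they were 0 with the 75th percentile, 2 with that over all names, 2 without normalization (let-7a-5p at 1.12 and let-7e-5p at 1.59) and 2 from processed spots, and within each tissue let-7e-5p (1.52) took the place of let-7c-5p. Among called members, miR-125a-3p reversed in control tissues within each tissue (0.53) and miR-125b-5p in myopic tissues without normalization (0.13). Another 2 members were not called before and were called with the opposite sign, and miR-99a-5p in myopic tissues passed the test with the opposite sign within each tissue (0.51) but not the 2-fold threshold. MiR-125a-5p in control tissues was at 1.17 without normalization and 1.11 within each tissue. MiR-99b-5p was at 1.04 and 1.23 in control tissues and at 1.35 and 1.13 in myopic tissues. With the 75th percentile over all names it was at -0.54 in control tissues and at -0.81 in myopic tissues. The difference between the arms of miR-125a fell to 0.16 with normexp (adjusted exact p = 0.19) and to 1.37 within each tissue (adjusted exact p = 0.125), against adjusted p values from 0.03 to 0.19 over its alternatives. Normexp was run with an offset of 50, which flattens dim miRNAs such as miR-125a-3p by construction. Among the changes of relatives with deprivation, scaling to either 75th percentile and no normalization gave 0.18 for the arms of miR-125a in the retina, 0.0206 in the retina and 0.0197 in the sclera for miR-125a-5p less miR-125b-5p, 0.0542 and 0.0144 for miR-99a-5p less miR-99b-5p, and -0.00228 and -0.0688 for miR-99b-5p less miR-100-5p. With normexp these were 0.0469 for the arms of miR-125a, 0.19 for miR-99a-5p less miR-99b-5p and -0.0395 for miR-99b-5p less miR-100-5p in the retina. Within each tissue miR-125a-5p less miR-125b-5p was -0.18 in the sclera. The cause was not tested. With pool as a replicate block miR-125a-3p in the retina was at -1.37, the same by construction, and the block changed no call of a member or let-7 arm. Signal over background limits the 3p arms, since miR-125a-3p had total gene signals of 6.9 to 20.1 and miR-99b-3p of 3.3 to 41.2 where detected, and miR-125b-1-3p and miR-125b-2-3p could not be measured.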
